A study of Mus musculus with 6 samples.

Results

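The 8 genes described here are Ppara, which encodes the nuclear receptor PPARα, and 7 genes known as its targets, Cpt1a, Acadm, Acadl, Acaa2, Pdk4, Angptl4 and Plin2. They were picked by name from the 21878 genes of the deposited FPKM table (fragments per kilobase of transcript, scaled to the fragments of the library), with their levels in these libraries already known. Their levels and the differences between groups are therefore given as a description, and nothing is read from the number of them past a threshold. Crypts of the intestine of C57BL/6 mice were profiled by RNA sequencing to learn how activating Toll-like receptor 4 alters the crypt transcriptome after radiation exposure. The AIR + MPLA crypts came from mice irradiated over the abdomen and given MPLA, the AIR crypts from mice irradiated over the abdomen without MPLA, and the Control crypts from mice that were not irradiated. Both irradiated groups were sampled 3 days after irradiation. Each group held 2 libraries, numbered 1 and 3 in AIR + MPLA and in AIR, and 2 and 3 in Control. MPLA is an agonist of that receptor derived from lipid A; it is given in the sample titles and in the design text, and no group received MPLA without irradiation. The radiation dose, the schedule of MPLA, and the sex and age of the mice are not stated in the labels. The labels do not say that replicates came from separate mice, so spreads and p-values measure only the variation between these libraries, which may be technical.

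PPARα binds fatty acids and, paired with a retinoid X receptor, switches on genes by which cells take up, store and burn fat. Fatty acids enter mitochondria through the carnitine shuttle, are shortened step by step in β-oxidation, and in some tissues yield ketone bodies. In the intestine this programme is known from absorptive cells that handle dietary fat and from crypt stem cells, which use fatty acid oxidation. None of the 8 genes encodes an enzyme of ketone body synthesis, so that branch is described below from other genes.

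Promoter windows were available for 6 of the 8 genes in RefSeq sequence of GRCm38.p6, each from 250 bases before to 50 bases after an annotated start. None was available for Angptl4 or Acaa2. The 300-base windows of Pdk4, Acadl and Cpt1a are printed 5′ to 3′ on the gene's strand, because these 3 genes differed most between AIR and Control among those with a window. Capitals mark TGACCT, the reverse complement of AGGTCA, which is the hexamer that PPAR and its partner recognise as a direct repeat. The Pdk4 window is chr6:5496229-5496528 (minus strand), the Acadl window chr1:66863260-66863559 (minus strand) and the Cpt1a window chr19:3323051-3323350 (plus strand).
Pdk4: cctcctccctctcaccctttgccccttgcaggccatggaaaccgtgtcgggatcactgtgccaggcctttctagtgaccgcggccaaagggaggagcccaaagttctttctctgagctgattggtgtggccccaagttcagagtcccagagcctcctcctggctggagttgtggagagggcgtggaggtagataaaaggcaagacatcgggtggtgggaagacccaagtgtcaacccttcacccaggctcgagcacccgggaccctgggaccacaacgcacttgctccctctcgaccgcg
Acadl: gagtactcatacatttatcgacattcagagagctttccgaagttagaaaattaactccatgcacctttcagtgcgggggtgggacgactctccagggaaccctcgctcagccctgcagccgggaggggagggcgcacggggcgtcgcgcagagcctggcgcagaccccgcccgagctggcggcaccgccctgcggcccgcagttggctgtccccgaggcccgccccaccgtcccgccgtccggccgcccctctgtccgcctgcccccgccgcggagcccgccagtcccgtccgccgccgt
Cpt1a: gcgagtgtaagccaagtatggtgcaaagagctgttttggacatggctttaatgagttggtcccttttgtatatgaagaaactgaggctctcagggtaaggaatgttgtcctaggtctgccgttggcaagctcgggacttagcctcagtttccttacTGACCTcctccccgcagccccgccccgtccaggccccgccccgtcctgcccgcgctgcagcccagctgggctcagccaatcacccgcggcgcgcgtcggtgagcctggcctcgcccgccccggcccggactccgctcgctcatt

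On either strand the direct repeat, AGGTCA copied in tandem with 1 base between the copies, was in 0 of the 6 windows and in 0.0396% of all 32851 windows. The single hexamer AGGTCA, which every such repeat also contains, was in 3 of the 6 windows and in 16.3% of all windows. It lay on the opposite strand in each case, with its outer base 94 bases upstream of the window's start in Cpt1a, 218 in Plin2 and 249 in Acadm. For Cpt1a, Plin2 and Ppara the window's start lies inside the whole-gene span given below, not at its outer end. The whole windows of Cpt1a and Ppara, with the Cpt1a match, lie inside those spans. The windows of Pdk4, Acadl and Ppara held no match. A match is only a match of letters, and the absence of one covers these windows alone.

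In GRCm38.p6 Ppara lies at chr15:85734910-85806851, Cpt1a at chr19:3322326-3385735, Acadm at chr3:153922353-153944643 and Acadl at chr1:66830839-66863309. Acaa2 lies at chr18:74779212-74806207, Pdk4 at chr6:5483351-5496278, Angptl4 at chr17:33774900-33781575 and Plin2 at chr4:86626910-86670217. These are whole-gene spans in RefSeq, and the deposited values are 1 per gene, so exons and isoforms cannot be told apart. The row named Plin2 carries the gene ID 101055843, which RefSeq gives to Gm12551, while RefSeq Plin2 is 11520, so the Plin2 values are uncertain. The other 7 rows carry the RefSeq ID of their gene. In the pathway annotation that the authors deposited beside the values, 6 of the 8 genes are placed in PPAR signaling and Pdk4 and Acaa2 are not.

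FPKM totals ran from 441942 to 454781 in AIR + MPLA, from 398242 to 419566 in AIR and from 381669 to 492247 in Control. The number of reads behind a value is unknown, so no counting error can be given. The deposited file of Control replicate 2 (total 381669) and the series-table column of that name (total 503961) hold different values. The series-table column correlated with Control replicate 3 at Pearson r = 0.9986 across genes and with the library's own file at 0.9862; the own file was used, and the series-table value is given beside it. Epithelial markers such as Epcam and Vil1 were high in every library, with summed FPKM of 3738 to 4244 in AIR + MPLA, 2611 to 2894 in AIR and 3509 to 3712 in Control for 8 of 8 genes tested. For 12 villus enterocyte markers the sum was 7085 to 9938 in AIR + MPLA, 7840 to 14614 in AIR and 3939 to 5762 in Control. AIR replicate 1 was the highest. The 12 include apolipoprotein genes such as Apoa1 and Apoa4. Past a limma adjusted p of 0.05, 4 were higher and 1 lower in AIR against Control, where 8.05% of all tested genes were higher and 18.7% lower. In AIR + MPLA against AIR 2 were higher and 3 lower, where 19.5% of tested genes were higher and 9.90% lower. Against Control, AIR + MPLA had 0 higher and 1 lower, where 0.643% of tested genes were higher and 0.835% lower. T cell markers summed to 21.9 to 32.7 FPKM in AIR + MPLA, 33.8 to 43.7 in AIR and 132 to 199 in Control. Of 10 fibroblast and smooth muscle markers, 10 stayed below 1 FPKM in every library, and 4 of 6 adipocyte markers, Adipoq among them, were listed at 0 throughout. In bulk crypts, more cells of a kind and more RNA per cell cannot be told apart.

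Ppara, the receptor gene, was spread so widely in Control that its separation from the irradiated groups depends on Control replicate 2. It had 8.53 and 7.92 FPKM in the AIR + MPLA libraries 1 and 3, 6.65 and 7.37 FPKM in the AIR libraries 1 and 3, and 9.48 and 5.76 FPKM in the Control libraries 2 and 3 (5.26 for Control replicate 2 in the series table). With the own file the Control libraries lay on both sides of all irradiated ones, and with the series-table value both lay below them. Group means were 8.23 ± 0.429 FPKM in AIR + MPLA, 7.01 ± 0.511 FPKM in AIR and 7.62 ± 2.63 FPKM in Control (SD, n = 2 each). Of the 8 genes it had the lowest level per transcript length in each of the 4 irradiated libraries. On log2(FPKM + 1), a scale that understates the change of low genes, AIR minus Control was -0.07 with an SE of 0.22, and 0.30 with the series-table library. It was 0.21 after correction for transcript GC content, and -0.39 to 0.24 when 1 library was left out.

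Cpt1a, which encodes the carnitine palmitoyltransferase that admits long-chain fatty acids to mitochondria, was lowest in AIR. It had 42.6 and 44.2 FPKM in the AIR + MPLA libraries 1 and 3, 28.6 and 27.1 FPKM in the AIR libraries 1 and 3, and 60.0 and 41.4 FPKM in the Control libraries 2 and 3 (series-table value 39.0). Both AIR libraries lay below every library of the other groups, and the AIR + MPLA libraries lay between the Control libraries with the own file and above both with the series-table value. The mean was 43.4 ± 1.12 FPKM in AIR + MPLA, 27.9 ± 1.09 FPKM in AIR and 50.7 ± 13.1 FPKM in Control (SD, n = 2 each). AIR was 0.549 times Control (0.693 with the series-table library), a log2 difference of -0.82 with an SE of 0.20. AIR + MPLA was 1.56 times AIR, a log2 difference of 0.62. Against Control, AIR + MPLA was at -0.20, and at 0.11 with the series-table library. After the same GC correction the log2 differences were -0.54 for AIR against Control and 0.30 for AIR + MPLA against AIR. With the GC correction and the series-table library together, AIR against Control was -0.19.

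Acadl, the long-chain acyl-CoA dehydrogenase of β-oxidation, was high in both irradiated groups. It had 211 and 207 FPKM in the AIR + MPLA libraries 1 and 3, 200.3 and 173 FPKM in the AIR libraries 1 and 3, and 84.1 and 63.9 FPKM in the Control libraries 2 and 3 (series-table value 57.4). Every irradiated library was above every Control library, and both AIR + MPLA libraries were above both AIR libraries. AIR was 2.52 times Control (3.08 with the series-table library), with a log2 difference of 1.33 and an SE of 0.19. AIR + MPLA was 2.83 times Control (3.45 with the series-table library) and 1.12 times AIR, with log2 differences of 1.50 and 0.17. The small difference between the irradiated groups was 0.00 after median-ratio scaling and 0.32 after GC correction.

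Acadm, the medium-chain dehydrogenase that takes over the shortened chains, did not share this pattern. It had 48.6 FPKM in both AIR + MPLA libraries, 44.0 and 54.2 FPKM in the AIR libraries 1 and 3, and 61.1 and 38.6 FPKM in the Control libraries 2 and 3 (series-table value 35.7). The Control libraries were the highest and the lowest of the 6, so all groups overlapped, but with the series-table value both Control libraries lay below every irradiated one. Its log2 difference for AIR against Control was 0.01 with an SE of 0.23, and 0.39 with the series-table library. It was 0.15 after GC correction, and -0.32 to 0.33 when 1 library was left out. The ratio of Acadl to Acadm FPKM was 4.34 and 4.27 in AIR + MPLA, 4.55 and 3.20 in AIR, and 1.38 and 1.65 in Control (1.61 in the series table), without overlap between irradiated and Control libraries.

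Acaa2, the mitochondrial thiolase that releases acetyl-CoA in the last step of a cycle, was ordered AIR + MPLA above AIR above Control. It had 223 and 263 FPKM in the AIR + MPLA libraries 1 and 3, 172 and 176 FPKM in the AIR libraries 1 and 3, and 152 and 112 FPKM in the Control libraries 2 and 3 (series-table value 104). No library crossed into a neighbouring group, although the gap between AIR and Control replicate 2 was small beside the Control spread. Means were 243 ± 28.3 FPKM in AIR + MPLA, 174 ± 2.86 FPKM in AIR and 132 ± 28.5 FPKM in Control (SD, n = 2 each). The log2 difference was 0.47 for AIR + MPLA against AIR. It was 0.89 for AIR + MPLA against Control (1.16 with the series table) and 0.41 for AIR against Control (0.69 with the series table). The SE was 0.20 for each with the own file and 0.12 for each with the series table. After GC correction the difference between the irradiated groups was 0.07 and that of AIR against Control 0.74. Without Control replicate 3 AIR against Control was 0.19, and without Control replicate 2 it was 0.63. Set against Hadha, which encodes the α subunit of the trifunctional protein upstream of the thiolase, the FPKM ratio was 2.69 and 3.02 in AIR + MPLA, 3.50 and 3.31 in AIR, and 1.79 and 1.71 in Control. On that ratio AIR was above AIR + MPLA, although Acaa2 itself was lower in AIR. Hadha had 82.9 and 87.1 FPKM in AIR + MPLA, 49.3 and 53.4 FPKM in AIR, and 85.2 and 65.4 FPKM in Control. The order of the irradiated groups on the ratio thus comes from the lower Hadha in AIR.

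Pdk4, the kinase that inactivates pyruvate dehydrogenase and so spares glucose when fat is burned, had the widest range of the 8 genes, as the ratio of the highest to the lowest library. It had 8.93 and 13.3 FPKM in the AIR + MPLA libraries 1 and 3, 52.2 and 22.7 FPKM in the AIR libraries 1 and 3, and 2.49 and 1.58 FPKM in the Control libraries 2 and 3 (series-table value 0.934). The 3 groups did not overlap, with AIR highest and Control lowest, but the AIR libraries differed by more than the gap between AIR replicate 3 and AIR + MPLA. The mean was 11.1 ± 3.08 FPKM in AIR + MPLA, 37.5 ± 20.9 FPKM in AIR and 2.03 ± 0.639 FPKM in Control (SD, n = 2 each). AIR was 18.4 times Control (29.8 with the series-table library), with a log2 difference of 3.57 and an SE of 0.39. AIR + MPLA was 0.296 times AIR and 5.46 times Control (8.83 with the series-table library), with log2 differences of -1.58 and 1.99. The difference between the irradiated groups was -0.99 without AIR replicate 1 and -2.16 without AIR replicate 3. AIR replicate 1, the highest for Pdk4, also had the highest sum of the villus enterocyte markers, which did not all go the same way. The part of those cells in the Pdk4 difference was not tested.

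Angptl4, which encodes a secreted inhibitor of lipoprotein lipase, was likewise low in Control. It had 19.8 and 29.9 FPKM in the AIR + MPLA libraries 1 and 3, 46.7 and 27.9 FPKM in the AIR libraries 1 and 3, and 4.07 and 2.09 FPKM in the Control libraries 2 and 3 (series-table value 3.84). All irradiated libraries were above all Control libraries, and the irradiated groups overlapped. The mean was 24.8 ± 7.15 FPKM in AIR + MPLA, 37.3 ± 13.3 FPKM in AIR and 3.08 ± 1.40 FPKM in Control (SD, n = 2 each). AIR was 12.1 times Control, AIR + MPLA was 8.07 times Control and 0.666 times AIR. The log2 differences were 3.23, 2.68 and -0.55 in that order, each with an SE of 0.34. The difference between the irradiated groups was -0.19 without AIR replicate 1, -0.26 without AIR + MPLA replicate 1, -0.91 without AIR replicate 3, and -0.84 both without AIR + MPLA replicate 3 and after GC correction.

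Plin2, a coat protein of lipid droplets, showed no separation of the irradiated crypts from Control as a whole. Its row had 19.8 and 25.7 FPKM in the AIR + MPLA libraries 1 and 3, 18.3 and 11.3 FPKM in the AIR libraries 1 and 3, and 16.0 and 19.7 FPKM in the Control libraries 2 and 3 (series-table value 17.9). Both AIR + MPLA libraries were above the other libraries, AIR + MPLA replicate 1 by less than the spread within any group, and AIR overlapped Control. The log2 difference was 0.61 for AIR + MPLA against AIR and -0.28 for AIR against Control, each with an SE of 0.25. After GC correction they were 0.25 and 0.02. AIR + MPLA against AIR was 0.94 without AIR replicate 1 and 0.29 without AIR replicate 3, and AIR against Control was -0.61 and 0.04 without the same libraries.

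**Figure D1:**
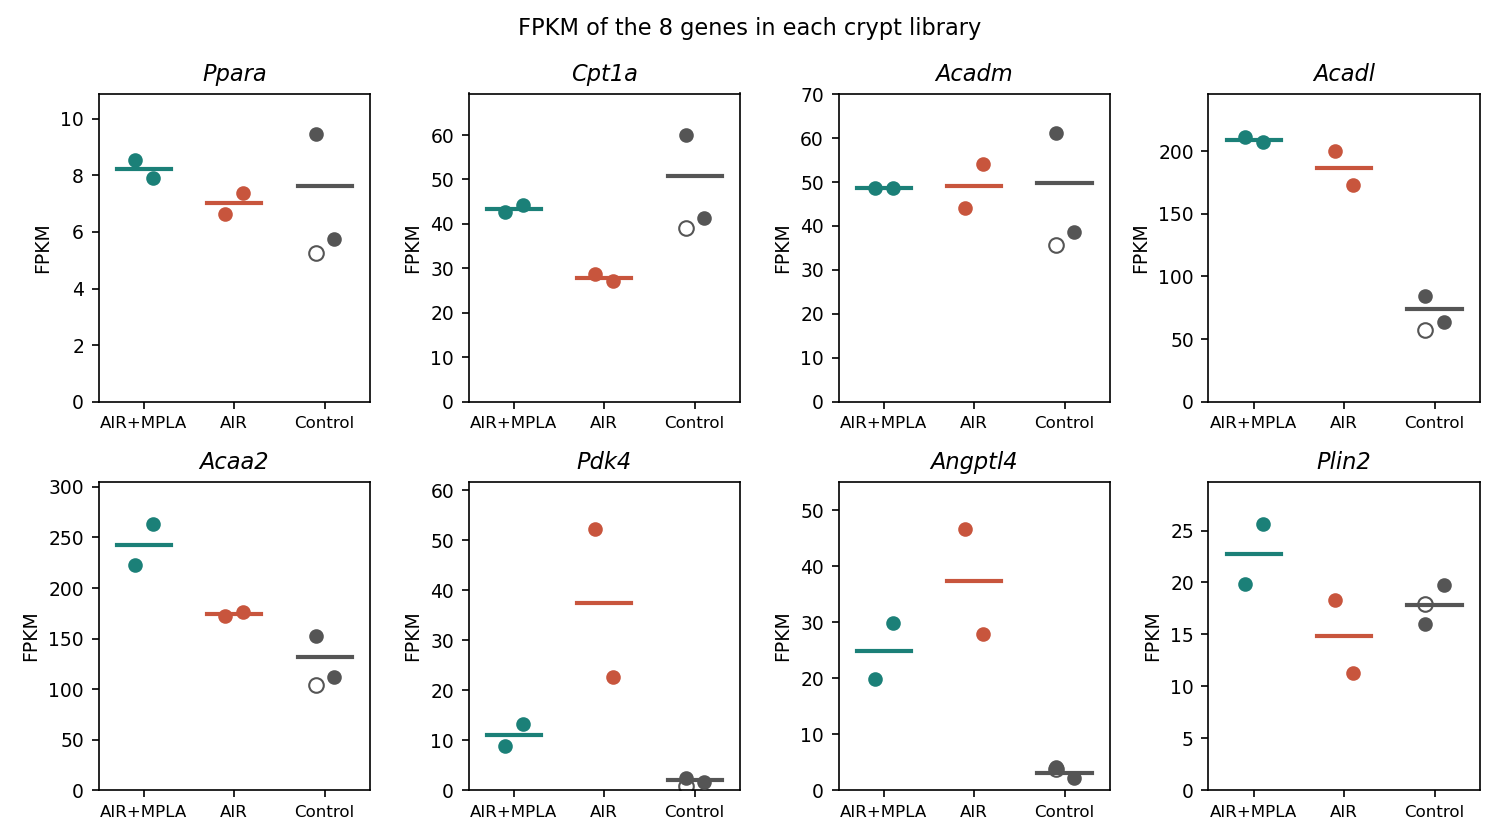
FPKM of each of the 8 genes (vertical axes, linear, from 0) in AIR + MPLA, AIR and Control; filled points are single libraries, lines are group means, and the open point is Control replicate 2 as the series table gives it. Pdk4 and Angptl4 lie near the bottom in Control, at 1.58 to 4.07 FPKM, and Cpt1a is lowest in AIR, at 27.1 and 28.6 FPKM.

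The genes thus fell into more than one pattern, and their number past the threshold was set beside that of all genes tested. In AIR against Control, with the own file of Control replicate 2, 4 of the 8 were higher without overlap of the libraries and 1, Cpt1a, was lower, where 22.2% of tested genes were higher and 41.7% lower in that way. Past a limma adjusted p of 0.05 were 3 higher (Acadl, Pdk4 and Angptl4) and 1 lower (Cpt1a), where 8.05% of all 10415 tested genes were higher and 18.7% lower, 26.7% in all. In AIR + MPLA against AIR, 5 of the 8 were higher without overlap and Pdk4 was lower, where 47.5% of tested genes were higher and 29.7% lower. Past the limma threshold was 1 of the 8, Pdk4, lower, where 19.5% of all tested genes were higher and 9.90% lower, 29.4% in all. The third comparison, AIR + MPLA against Control, had 5 of the 8 higher without overlap and 0 lower, where 25.0% of tested genes were higher and 24.5% lower. There 2 of the 8, Acadl and Angptl4, were higher past the limma threshold, where 0.643% of all tested genes were higher and 0.835% lower, 1.48% in all. Because the genes were chosen on these values, nothing is read from the counts.

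Several of these calls ended under other settings. In AIR against Control the lower call, Cpt1a, was lost with median-ratio scaling, no filter, GC correction or only the 4 libraries compared, and without any 1 of the irradiated libraries. The higher calls there numbered 3 or more in these fits, except 2 without AIR replicate 1. In AIR + MPLA against AIR the Pdk4 call was lost with no filter, GC correction or any 1 irradiated library left out, where limma put 0 of the 8 past the threshold and 1 to 3 at an unadjusted p below 0.05. With only the 4 libraries compared, or without either Control library, 2 other genes of the 8 passed as higher and Pdk4 did not pass. In AIR + MPLA against Control both calls were lost with no filter, with the 4 libraries compared and without any 1 irradiated library, where limma put 0 past the threshold and 4 at an unadjusted p below 0.05.

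With the series-table library 6 of the 8 were higher and 1 lower past the limma threshold in AIR against Control, where 25.0% of tested genes were higher and 37.3% lower (62.4% in all). In AIR + MPLA against AIR 2 were higher and 1 lower, where 34.4% of tested genes were higher and 20.6% lower (55.0% in all). Against Control, AIR + MPLA then had 5 higher and 0 lower, where 5.54% of tested genes were higher and 5.11% lower (10.6% in all).

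The median log2 difference over the 8 genes was 0.21 in AIR against Control, where all tested genes had -0.13, and 0.19 in AIR + MPLA against AIR, where they had 0.15. It was 0.61 in AIR + MPLA against Control, where all tested genes had -0.03. Median-ratio scaling moved the median of all genes to 0.02 in AIR against Control and to 0.01 in AIR + MPLA against AIR, so differences of about 0.15 between AIR and another group lie within the choice of scaling. Under that scaling Pdk4 (3.72), Angptl4 (3.39), Acadl (1.51), Acaa2 (0.59) and Cpt1a (-0.65, no longer past the threshold) kept their signs in AIR against Control, and Ppara became positive at 0.08. The comparisons share libraries and are not independent of each other.

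**Figure D2:**
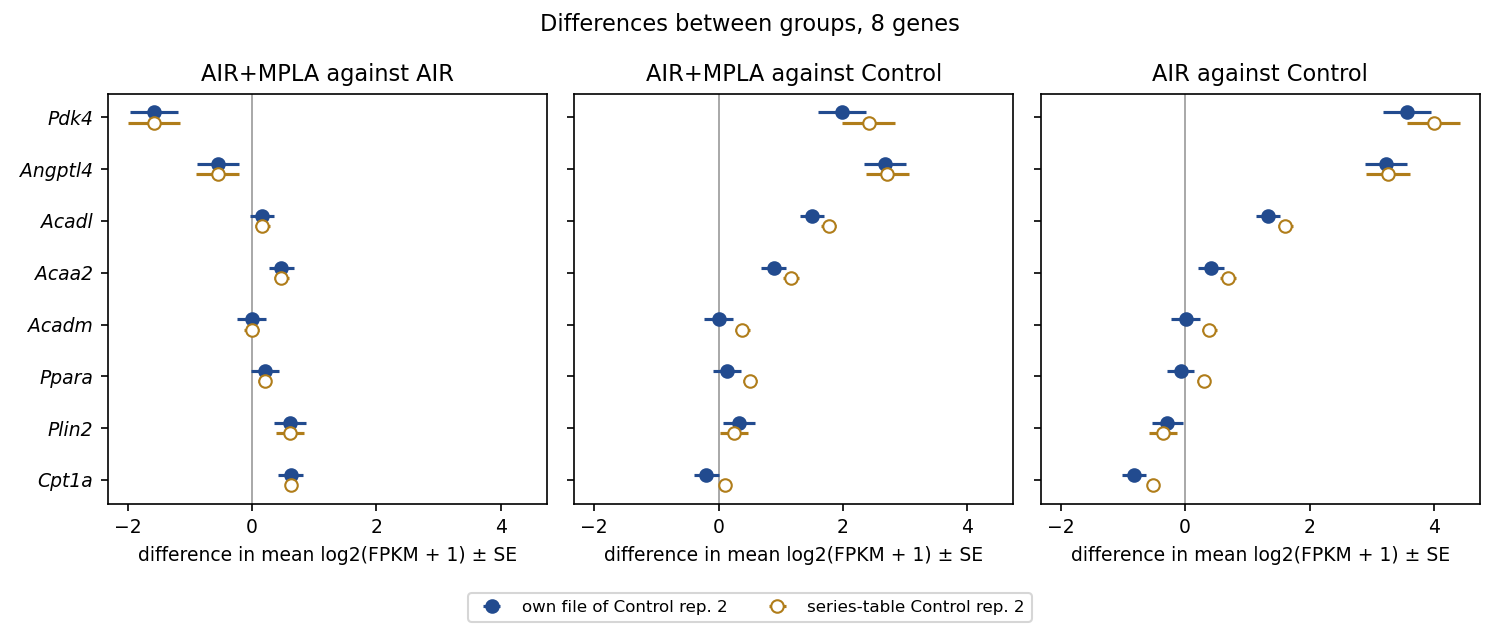
Difference in mean log2(FPKM + 1) between groups for the 8 genes, with bars of 1 SE from the fit across all genes; filled points use the own file of Control replicate 2 and open points its series-table column. Pdk4 is at -1.58 in AIR + MPLA against AIR and at 3.57 in AIR against Control, while Acadm stays between -0.01 and 0.01 with the own file.

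A gene's share of its family within a library does not depend on how libraries are scaled, and FPKM is per transcript length, so levels of related genes can be added. Such a share also moves with the other genes in the sum. Pdk4 made up 16.8% and 22.2% of the summed FPKM of the kinases Pdk1 to Pdk4 in AIR + MPLA, 65.6% and 41.9% in AIR, and 5.25% and 3.61% in Control (2.26% in the series table). Pdk4 was thus the main kinase transcript in AIR replicate 1 and the least abundant of the 4 in both Control libraries. Acadl made up 51.6% and 49.4% of the 4 straight-chain acyl-CoA dehydrogenases in AIR + MPLA, 61.2% and 53.6% in AIR, and 30.4% and 27.6% in Control. On that share AIR was above AIR + MPLA, although Acadl itself was lower in AIR. Acads had 62.4 and 74.8 FPKM in AIR + MPLA and 33.8 and 39.0 FPKM in AIR. Acadvl had 86.4 and 89.3 FPKM in AIR + MPLA and 49.0 and 56.6 FPKM in AIR. Angptl4 made up 75.7% and 77.8% of Angptl4, Angptl6 and Angptl8 in AIR + MPLA, 88.3% and 78.6% in AIR, and 53.3% and 33.4% in Control. That set is a part of its family, so these are not shares of the whole family. Cpt1a made up between 89.9% and 97.8% of the Cpt1 genes in every library. Ppara made up 20.0% and 17.4% of the PPAR genes in AIR + MPLA, 20.9% and 31.4% in AIR, and 22.0% and 8.83% in Control, with overlap of AIR and Control that is absent with the series-table value of 7.95%.

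**Figure D3:**
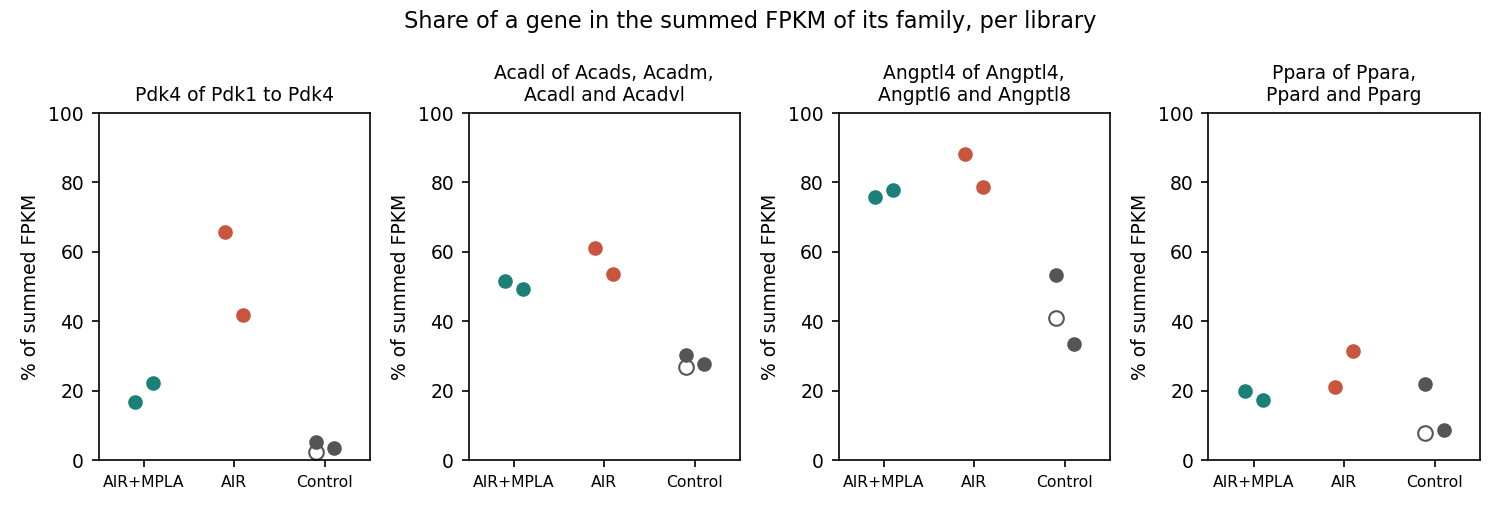
Share of Pdk4, Acadl, Angptl4 and Ppara in the summed FPKM of a set of related genes (vertical axes, per cent, 0 to 100) in each library. For Angptl4 the set is Angptl4, Angptl6 and Angptl8, a part of its family. Open points are Control replicate 2 from the series table. The Pdk4 share is 41.9% and 65.6% in AIR and at most 5.25% in Control.

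Over the 6 libraries the 28 pairs of the 8 genes had a median Pearson r of 0.179 on log2(FPKM + 1), and 0.700 with the series-table library, so this value depends on Control replicate 2. These correlations rest on 6 libraries that share their groups and are given as a description. The highest were Acadl with Angptl4 (0.958), Pdk4 with Angptl4 (0.954) and Ppara with Acadm (0.875). The lowest was Cpt1a with Pdk4, at -0.779, and with the series-table library it was -0.641. Acadl with Pdk4 was at 0.837, while Cpt1a with Acadl was at -0.477, and -0.260 with the series-table library.

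The rest of the pathway was read from 8 lists with 151 genes that do not include the 8, of which 127 had at least 1 FPKM in at least 2 libraries. In AIR against Control 19 of these 127 were higher and 16 lower (limma adjusted p below 0.05), where 8.05% of all tested genes were higher and 18.7% lower, and the median log2 difference was -0.13 over the lists and over all tested genes. The count of 35 was 1, Fads2, without AIR replicate 1 and 16 without AIR replicate 3, while leaving out AIR + MPLA replicate 1 gave 23 and leaving out AIR + MPLA replicate 3 gave 22. With the series-table library 39 of the pathway genes were higher and 40 lower, where 25.0% of all tested genes were higher and 37.3% lower. The change ran both ways in mitochondrial oxidation, where 4 of 24 rose and 2 fell, and in pyruvate dehydrogenase control, where 3 of 14 rose and 3 fell. The 2 mitochondrial genes that fell were Cpt2 and Acadvl, the inner-membrane carnitine transferase and the very-long-chain dehydrogenase. Cpt2 had 61.9 and 78.3 FPKM in AIR + MPLA, 31.2 and 31.3 FPKM in AIR, and 59.0 and 61.8 FPKM in Control. Its log2 difference for AIR against Control was -0.93 (SE 0.16, limma adjusted p = 0.0125). Acadvl fell by 0.67 (limma adjusted p = 0.0231), a call lost after GC correction, at -0.33 and an adjusted p of 0.167, and lost under median-ratio scaling. The mitochondrial genes that rose included the fatty acid activating enzymes Acsl3 (log2 difference 0.90) and Acsl4 (0.84). Of 24 named calls in this comparison GC correction kept 20, without Acsl4, Acadvl, Pdp1 and Pdk2. With no filter 15 were kept, without Acsl3, Acsl4, Slc16a6, Creb3l3, Angptl8, Lmf1, Dld, Gdf15 and Ppard. With only the 4 libraries compared, the calls of Acsl3, Acadvl, Slc16a6, Creb3l3, Angptl8, Dld and Fabp1 were lost.

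Genes of fatty acid uptake and binding gave 4 rises and 0 falls among 11 in AIR against Control. Over all tested genes 8.05% were higher and 18.7% lower. Cd36, a fatty acid translocase of the cell surface, had 3.89 and 3.80 FPKM in AIR + MPLA, 25.5 and 11.3 FPKM in AIR, and 2.95 and 1.44 FPKM in Control. Its log2 difference was 2.54 (SE 0.38, limma adjusted p = 0.00906). Fabp2, which carries fatty acids inside enterocytes, was at 1.48 (limma adjusted p = 0.0103), and its liver-type relative Fabp1 was at 1.17 (limma adjusted p = 0.0193). In the peroxisomal and omega oxidation list 3 of 21 rose and 0 fell. Acox2, a branched-chain acyl-CoA oxidase, had 6.18 and 7.83 FPKM in AIR + MPLA, 7.35 and 7.26 FPKM in AIR, and 0.983 and 1.74 FPKM in Control. Its log2 difference for AIR against Control was 1.83 (limma adjusted p = 0.00546). The villus enterocyte marker sum given above was highest in AIR replicate 1, as was Cd36, and its part in these differences was not tested.

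Of 20 partners and coregulators of PPAR, 1 was higher and 6 were lower in AIR against Control. Called genes as a whole were also mostly lower, with 8.05% of all tested genes higher and 18.7% lower. Under median-ratio scaling that skew over all genes was gone, with 1228 higher and 1124 lower. Ppard, the PPARδ receptor gene, had 30.5 and 32.9 FPKM in AIR + MPLA, 18.8 and 12.3 FPKM in AIR, and 30.5 and 56.3 FPKM in Control, a log2 difference of -1.39 for AIR against Control (limma adjusted p = 0.0215). The coactivator gene Pprc1 fell by 0.94 (log2 scale). Creb3l3, a transcription factor known in liver to work with PPARα, rose by 0.82. Pparg was at 0.52 (limma adjusted p = 0.139). Of the other PPAR target genes 2 of 16 rose and 3 fell, led by Fads2, a fatty acid desaturase, at -1.83 (limma adjusted p = 0.00453) and Vnn1, a pantetheinase, at 1.32. In the lipid droplet list 1 of 13 rose and 1 fell, Angptl8 at 0.74 and Lmf1, a lipase maturation factor, at -0.91. Beside Pdk4, Pdk2 fell by 0.77 and Pdk3 by 0.85, while the opposing phosphatase gene Pdp1 rose by 1.08.

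Ketone body genes gave 1 rise and 1 fall among 8 in AIR against Control. Over all tested genes 8.05% were higher and 18.7% lower. Bdh1, the β-hydroxybutyrate dehydrogenase, had 68.0 and 67.4 FPKM in AIR + MPLA, 37.7 and 40.7 FPKM in AIR, and 68.4 and 82.3 FPKM in Control, a log2 difference of -0.92 (limma adjusted p = 0.0116). Slc16a6, a ketone body exporter, rose by 0.81.

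Between AIR + MPLA and AIR, 31 of the 127 genes were higher and 5 lower in AIR + MPLA (limma adjusted p below 0.05), where 19.5% of all tested genes were higher and 9.90% lower. The median log2 difference was 0.29 over the lists and 0.15 over all tested genes. Leaving out AIR replicate 1, AIR replicate 3, AIR + MPLA replicate 1 or AIR + MPLA replicate 3 left 0 of the 127 past the limma threshold. At an unadjusted p below 0.05 those fits held 42, 50, 43 and 31 of the 127, in the same order. Without either Control library the count was 59, and with the series-table library 58 were higher and 13 lower. Of all tested genes 34.4% were higher and 20.6% lower with the series-table library. With the own file, 8 of 24 rose and 0 fell in mitochondrial oxidation. In peroxisomal and omega oxidation 7 of 21 rose and 1 fell, and in the ketone body list 3 of 8 rose and 0 fell. Cpt2 rose by 1.13 (SE 0.16, limma adjusted p = 0.0153) and Acadvl rose by 0.73 (limma adjusted p = 0.0212). Acads, the short-chain dehydrogenase, rose by 0.89. The peroxisomal gene that fell was Crot, the carnitine octanoyltransferase, by 0.84. Of the ketone body genes Bdh1 rose by 0.77 (limma adjusted p = 0.0198) and the acetoacetyl-CoA synthetase gene Aacs rose by 0.89.

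Partners of PPAR gave 4 rises and 0 falls among 20 in AIR + MPLA against AIR. That is 20% higher, near the 19.5% of all tested genes, of which 9.90% were lower. Rxra, the receptor that pairs with PPARα, had 30.4 and 32.6 FPKM in AIR + MPLA, 16.2 and 15.3 FPKM in AIR, and 25.2 and 27.8 FPKM in Control, a log2 difference of 0.96 (limma adjusted p = 0.0153). Ppard rose by 1.01 (limma adjusted p = 0.0482). Uptake and binding gave 1 rise and 2 falls among 11, the falls being Cd36 at -1.90 (limma adjusted p = 0.0194) and Fabp2 at -1.42 (limma adjusted p = 0.0158). Fabp1 was at -0.42 (limma adjusted p = 0.228). Pyruvate dehydrogenase control gave 2 rises, Pdk2 at 1.06 and Pdk3 at 0.60, and 2 falls, Pdp1 at -1.12 and the dihydrolipoamide dehydrogenase gene Dld at -0.99. The lipid droplet list gave 3 rises and 0 falls among 13, with Lmf1 at 1.10 and Cideb, a lipid droplet protein, at 0.94. Other PPAR targets gave 3 rises and 0 falls among 16, or 18.8% higher, also near the share of all tested genes. Fads2 was at 1.60 and Ucp2, an uncoupling protein, at 1.53.

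The calls between the irradiated groups also moved with scaling and GC content. Under median-ratio scaling 17 of the 127 were higher and 8 lower, and over all genes 1078 were higher and 1453 lower, against 2029 and 1031 without scaling. After GC correction 16 of the 127 passed, and of the 21 named calls 10 remained, Cpt2, Rxra, Pdk2 and Fads2 among them; those lost were Acads, Crot, Aacs, Bdh1, Pprc1, Cideb, Pdp1, Dld, Cd36, Acadvl and Ppard. Median-ratio scaling kept 18 of the 21, without Cideb, Pdk3 and Ppard, and no filter kept 14, without Crot, Cideb, Pdk3, Pdp1, Dld, Cd36 and Ppard.

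**Figure D4:**
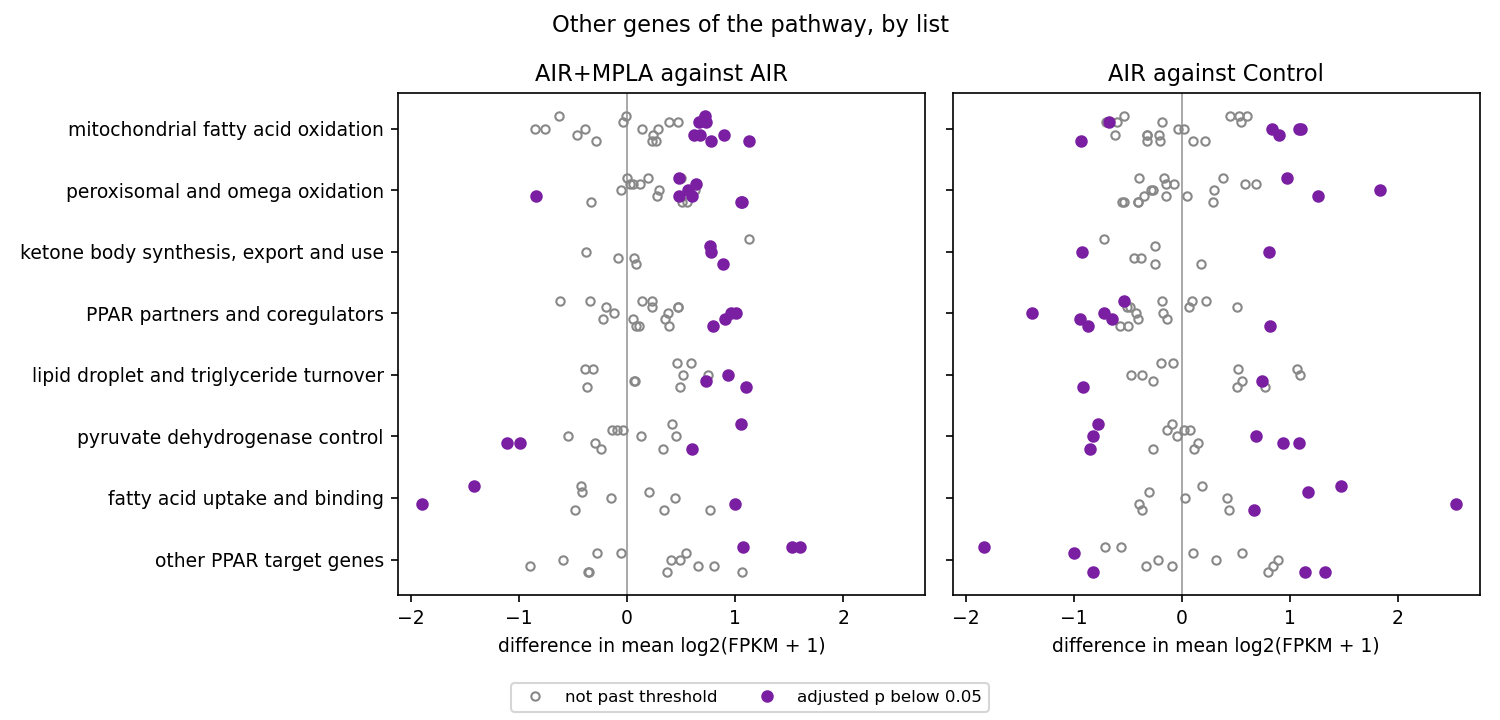
Difference in mean log2(FPKM + 1) for each tested gene of the 8 pathway lists (rows), in AIR + MPLA against AIR (left) and in AIR against Control (right); filled points passed a limma adjusted p of 0.05. Cd36 is the gene farthest from 0 in each panel, at -1.90 on the left and 2.54 on the right.

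Set against Control, AIR + MPLA had 1 of the 127 past the limma threshold, where 0.643% of all tested genes were higher and 0.835% lower. That gene was Acox2, with a log2 difference of 1.77 (SE 0.21, limma adjusted p = 0.0179). At an unadjusted p below 0.05 there were 36 of the 127, and 1674 of all tested genes. The median was 0.27 over the lists and -0.03 over all tested genes. With the series-table library 31 of the 127 were higher and 1 lower, where 5.54% of all tested genes were higher and 5.11% lower. The count of pathway genes thus rests on which values stand for Control replicate 2. Without Control replicate 3 it was 23, without Control replicate 2 it was 6, and without any 1 of the irradiated libraries it was 0, with 13 to 33 genes at an unadjusted p below 0.05. Cpt2 was at 0.20 (limma adjusted p = 0.544), Acadvl at 0.05 (0.869), Ppard at -0.38 (0.548) and Fabp1 at 0.75 (0.218).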

How the data were processed

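RNA from crypts was made into libraries with an Illumina TruSeq kit, per the labels' protocols. Trimmomatic, HISAT2, Cufflinks, HTSeq and the build GRCm38.p6 are named per the submitters' processing notes, without versions, order or strand setting, so a gene and its antisense transcripts cannot be told apart. The authors deposited FPKM for each gene, in 1 file per library and 1 table of the series. Groups and replicate numbers came from the titles. Of the 21878 gene IDs 21727 matched RefSeq, and 27 symbols turned into dates were restored by ID.

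The 10415 genes that reached 1 FPKM in 2 or more of the 6 libraries were fitted on log2(FPKM + 1) with limma 3.58.1 in R 4.3.3, a model of group means with all 6 libraries and 3 residual degrees of freedom, with trend and robust empirical Bayes, and Benjamini-Hochberg adjustment at 0.05, two-sided. Adjusted p-values are over all 10415 genes. FPKM was not rescaled. Tables used Python 3.11.15 with pandas 2.3.3, and figures matplotlib 3.10.9. The fit was tested on simulated data for AIR against Control only, with independent errors, so shifts shared across genes were not covered.

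The 8 genes, the lists and the tests were chosen with earlier results of these data known. Named genes were the 8, a fixed set given in every comparison (here Cpt2, Acadvl, Ppard, Pparg and Fabp1), for each list up to 2 genes of smallest p in each direction if the higher group averaged 1 FPKM or more, of which some are not reported here, and the 2 genes most like each of the 8. Alternatives were median-ratio and upper-quartile scaling, a pseudocount of 0.1, no filter, only the 4 libraries compared, the series-table Control replicate 2, GC correction (lowess, span 0.3), each library left out, and the replicate number as a block. Series-table values with GC correction, and a block with crossed numbers, were added after seeing the data.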

Additional observations from a re-analysis of the deposited data

How the results depend on the processing

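Genes past the limma threshold in AIR against Control numbered 2786; they were 1427 with only the 4 libraries compared, 6490 with the series-table Control replicate 2, 5048 with that and GC correction, and 124 to 4223 when 1 library was left out. Of the 127 pathway genes 35 passed there; they were 21, 79 and 60 under the same 3 settings and 1 to 52 when 1 library was left out. Median-ratio scaling gave 1228 higher and 1124 lower in place of 838 and 1948. In AIR + MPLA against AIR 3060 genes and 36 pathway genes passed. They were 4899 and 59 with the 4 libraries, 1185 and 16 with GC correction, 1181 and 17 with no filter, and 5724 and 71 with the series table. Leaving out 1 library gave 0 to 4891 genes and 0 to 59 pathway genes; the 4 fits with 0 held 2455 to 3626 genes at an unadjusted p below 0.05. In AIR + MPLA against Control 154 genes and 1 pathway gene passed. They were 43 and 0 with the 4 libraries, 298 and 4 with GC correction, 73 and 0 with no filter, 1108 and 32 with the series table, and 1282 and 31 with that and GC correction, and the limma fits with 0 held 34 and 37 pathway genes at an unadjusted p below 0.05. The pathway count there was 2 with median-ratio scaling and 3 with a pseudocount of 0.1, and leaving out 1 library gave 12 to 1561 genes and 0 to 23 pathway genes. The median r among the 8 genes was 0.700 with the series table and 0.185 with a pseudocount of 0.1.

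Same-numbered AIR and AIR + MPLA libraries deviated from their group means with r = -0.33 across genes, and the labels tie the numbers to no animal or batch. With the replicate number as a block 3562 genes and 44 pathway genes passed in AIR + MPLA against AIR, and 0 of both with the block and GC correction, where limma held 3491 genes and 49 pathway genes at an unadjusted p below 0.05. Crossed numbers as a block gave 5722 genes and 74 pathway genes, and whether libraries share a batch across the numbers was not tested. Of the 8 genes 1 passed as higher with the replicate number as a block and 1 as higher with the series table and GC correction together, and neither was Pdk4. With crossed numbers as a block 5 passed, 3 higher and 2 lower, where 3479 of all tested genes were higher and 2243 lower. Pdk4 was among the lower ones there.

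Among the named genes of the pathway lists, signs changed in these cases, and the cause was not tested. For Acadvl, AIR + MPLA against Control was -0.015 with upper-quartile scaling and -0.035 with GC correction. Ppard in AIR + MPLA against Control was -0.81 to 0.055, and Pparg in AIR + MPLA against AIR -0.50 to 0.12, when 1 library was left out.

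With 2 libraries a group and an unknown number of reads, small differences cannot be resolved. Where 1 library remained in a group, its variation was assumed equal to that of the other groups.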

Other observations

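In the PPAR signaling genes of the deposited annotation, without the 8 genes, 43 of 79 were tested. In AIR against Control 13 rose and 5 fell (limma adjusted p below 0.05), where 8.05% of all tested genes were higher and 18.7% lower, with a median log2 difference of 0.32 where all tested genes had -0.13. With the series-table Control replicate 2 they were 20 and 8, where 25.0% of tested genes were higher and 37.3% lower. Beside the genes given above, Pck1 and Gk rose; both were picked after their values were seen. Pck1, which encodes phosphoenolpyruvate carboxykinase of gluconeogenesis, had 31.8 and 55.9 FPKM in AIR + MPLA, 128 and 88.5 FPKM in AIR, and 28.3 and 12.0 FPKM in Control, a log2 difference of 2.46 for AIR against Control (limma adjusted p = 0.0120). Gk, the glycerol kinase gene, had 19.4 and 15.9 FPKM in AIR + MPLA, 35.9 and 36.0 FPKM in AIR, and 10.2 and 8.20 FPKM in Control. Its log2 difference was 1.86 for AIR against Control (limma adjusted p = 0.00453) and -0.99 for AIR + MPLA against AIR (limma adjusted p = 0.0162). Scd2, a stearoyl-CoA desaturase gene also picked after its values were seen, had another order, with 89.6 and 79.0 FPKM in AIR + MPLA, 48.8 and 28.4 FPKM in AIR, and 8.80 and 16.0 FPKM in Control, without overlap of the groups. Of the annotated fatty acid degradation genes 13 of 33 rose and 0 fell in AIR + MPLA against AIR, where 19.5% of all tested genes were higher and 9.90% lower, and 17 were higher and 5 lower with the series table. In AIR against Control 4 of the 33 rose and 5 fell, and 11 were higher and 13 lower with the series table.

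Among 6876 genes with a mean of at least 5 FPKM, those most like each of the 8 over the 6 libraries were found by Pearson r on log2(FPKM + 1), as a description. Most like Pdk4 were Ddx60 (0.997) and Sec16b (0.996). Ddx60, known as an interferon-induced helicase gene, had 5.55 and 9.37 FPKM in AIR + MPLA, 27.1 and 15.4 FPKM in AIR, and 2.26 and 1.68 FPKM in Control. Most like Angptl4 were Ugdh (0.997) and Tle1 (0.987), most like Acadl were Ccdc134 (0.995) and Msmo1 (0.992), and most like Cpt1a were Nfatc3 (0.991) and Huwe1 (0.991). For Acaa2 they were Tmem63b (0.973) and Acot1 (0.970), for Ppara Bmp3 (0.977) and Man1a (0.968), for Acadm Baiap2l2 (0.957) and Larp1b (0.953), and for the Plin2 row Acox3 (0.983) and Trim26 (0.980). Acot1, a cytosolic acyl-CoA thioesterase, had 16.9 and 22.9 FPKM in AIR + MPLA, 6.74 and 11.8 FPKM in AIR, and 7.89 and 2.64 FPKM in Control.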
